A study of Homo sapiens with 4 samples.

Results

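The genes described here are the solute carriers that bring glucose, amino acids, monocarboxylates and related nutrients into cells. They were chosen by symbol alone, as every protein-coding gene of the GENCODE annotation whose name begins with SLC1A, SLC2A, SLC3A, SLC6A, SLC7A, SLC16A, SLC20A, SLC36A, SLC38A or SLC43A. These 10 prefixes gave 91 of 20046 protein-coding genes. The rule is wider than its subject, since SLC20A genes carry phosphate, SLC6A genes carry neurotransmitters and creatine as well as amino acids, and 2 of the 91 are no carriers at all: SLC2A4RG, named as a regulator of SLC2A4, and SLC7A6OS, named for lying opposite SLC7A6. Of the 18789 N6-methyladenosine (m6A) sites listed for the cells, 117 lay in an exon of 1 of these genes on the same strand, in 15 genes.

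The sites were mapped in poly(A) RNA of untreated wild-type C643 cells, an established line from an anaplastic thyroid carcinoma. They come from miCLIP2, which uses ultraviolet light to bind RNA fragments to an antibody against m6A and reads the modified position from where the cDNA ends. The m6Aboost classifier then scored each peak at an adenosine, and the sites it kept had prediction scores between 0.5 and 1. There was 1 group of 3 biological replicates in 4 libraries, because replicate 1 had 2 technical libraries. The authors pooled the replicates into 1 list without read counts, so the depth of every site is unknown, no spread between replicates could be computed and no difference was tested. Intervals in parentheses are 95% Wilson intervals, or order-statistic intervals for medians, and cover the sampling of sites or genes only. Those over sites treat every site as independent, although sites of the same gene may not be, so they can be too narrow. RNA levels were not analysed here. A gene without a site therefore cannot be told apart from a gene with too few reads. Of thyroid follicle markers, TG, TSHR, SLC5A5, PAX8, NKX2-1 and FOXE1 had no listed site, which likewise does not say whether they were expressed.

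Carriers of the solute carrier class move nutrients across the plasma membrane or the membranes of organelles, mostly by facilitated diffusion, by exchange or by coupling to an ion gradient. Proliferating tumour cells are known to rely on glucose uptake, on exchange of essential amino acids for glutamine and on export of lactate. m6A is placed on nascent RNA mainly by the METTL3 and METTL14 complex at the DRACH motif (D is A, G or T, R is A or G and H is A, C or T) and is bound by reader proteins that act on RNA stability and translation.

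For the 10 genes with the most sites, the 21 bases around the highest-scoring site are shown, because the bases around the adenosine are what the antibody, the methyltransferase and the classifier all see. They were read from GRCh38 on the strand of the gene, 5′ to 3′, and the capitals mark the pentamer whose centre is the listed A.
SLC7A5: aggcaggtGGACTgactgtgt
SLC38A10: tcccagccAAACTctggaggt
SLC1A5: tgctctttGGACActggatta
SLC7A1: acttctctGAACAaagcagtt
SLC2A1: cactaatcGAACTatgaacta
SLC2A6: agaccaagGGACGgtccctgg
SLC16A3: tacaaactGGACTggctcagg
SLC1A4: cccagccgGAACTggttacca
SLC2A8: tgctctgaGGACTcaggaaca
SLC38A7: atgactatGGACAgaaggcca

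The SLC7A5 window lies at chr16:87831146-87831166 on the minus strand, and that of SLC38A7 at chr16:58667015-58667035, also minus. SLC38A10 is at chr17:81245465-81245485 (minus) and SLC16A3 at chr17:82239043-82239063 (plus). SLC1A5 is at chr19:46775455-46775475 (minus), SLC7A1 at chr13:29514206-29514226 (minus), SLC2A1 at chr1:42926616-42926636 (minus) and SLC1A4 at chr2:65021313-65021333 (plus). SLC2A6 is at chr9:133472071-133472091 (minus) and SLC2A8 at chr9:127407446-127407466 (plus). All 10 windows lay in the last exon of the canonical transcript. The window of SLC2A6 was coding, at -58 nt from the stop codon (negative is upstream), and the others were in the 3′ UTR. In 9 of the 10 the pentamer was a DRACH motif, and GGACG of SLC2A6 was the exception.

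A site was listed in 15 of the 91 genes (16.5%, 10.2 to 25.4), against 19.6% of all protein-coding genes and 53 of 283 other SLC genes (18.7%, 14.6 to 23.7). The share was near the background and is no result about the carriers. At least 5 sites were listed in 9 of the 91 (9.89%), against 7.78% of all protein-coding genes. The genes with a site were SLC7A5 (21 sites), SLC38A10 (21), SLC1A5 (15), SLC7A1 (10), SLC2A1 (7), SLC2A6 (7), SLC16A3 (6), SLC1A4 (6), SLC2A8 (6), SLC38A7 (4), SLC3A2 (4), SLC20A1 (3), SLC6A9 (3), SLC6A8 (2) and SLC2A4RG (2). The sites were unevenly spread, since SLC7A5, SLC38A10 and SLC1A5 held 57 of the 117 (48.7%). The median was 6 sites in a carrier gene that had any, against 3 in all protein-coding genes with a site and 5 in the other SLC genes with a site.

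**Figure D1:**
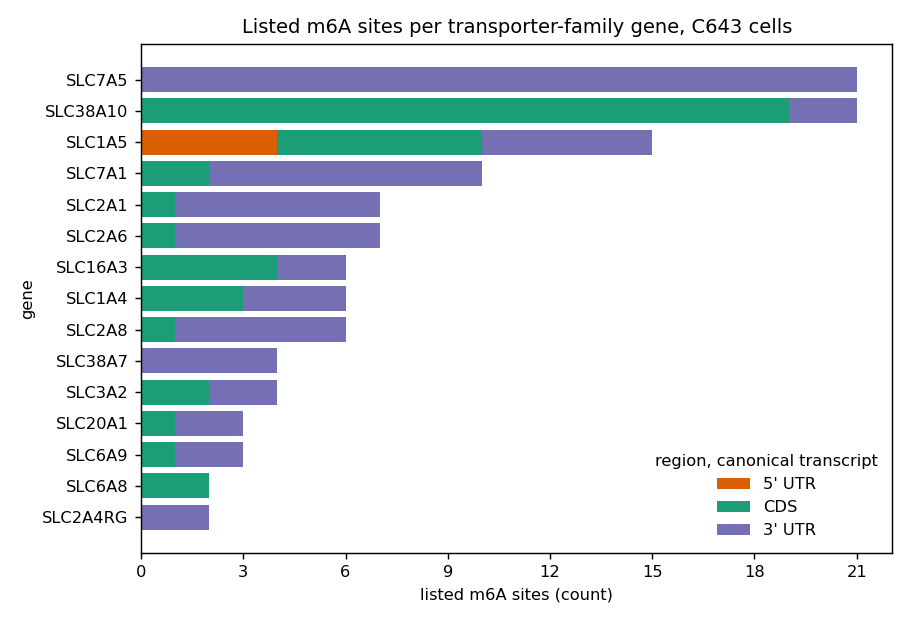
Listed m6A sites in the 15 genes that had any, with the count on the x axis and colours for the region in the canonical transcript of each gene. SLC7A5 and SLC38A10 both held 21 sites, in the 3′ UTR for SLC7A5 and mostly in coding sequence for SLC38A10.

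Among the amino acid exchangers of the plasma membrane, SLC7A5 carried the most sites. SLC7A5 (LAT1, ENSG00000103257.9, chromosome 16, minus strand) takes up leucine and other large neutral amino acids in exchange for glutamine. All 21 sites lay in its 3′ UTR of 2947 nt, in exon 10 of 10, and none of its 15 coding DRACH motifs was listed, against 20 of 57 (35.1%) in the 3′ UTR. The sites formed 2 stretches. The first held 7 sites between 161 and 636 nt after the stop codon and the second held 14 between 1497 and 2485 nt, with no listed site in the gap. The median score was 0.836, in a range from 0.52 to 0.934, and 18 of the 21 were at 0.7 or above. The highest score, 0.934, belonged to the site printed above, and a site in the first stretch at AGACT scored 0.922.

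SLC3A2 (4F2hc, CD98), the heavy chain that brings SLC7A5 and related light chains to the cell surface, had 4 sites on chromosome 11. They lay close to the stop codon, from -188 to 94 nt relative to it (negative is upstream), with 2 in coding sequence and 2 in the 3′ UTR. Their scores were 0.866 and 0.644 in the coding sequence and 0.858 and 0.725 in the 3′ UTR. The nearest SLC7A5 site was 161 nt past the stop codon, beyond the last SLC3A2 site. The 3′ UTR of SLC3A2 had only 187 nt, however, against 2947 nt in SLC7A5. No SLC3A2 site could lie beyond the end of its 3′ UTR, and whether length bears on the difference was not tested.

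SLC1A5 (ASCT2, ENSG00000105281.12, chromosome 19, minus strand) exchanges neutral amino acids, glutamine among them, and was the only gene of the 15 with sites in the 5′ UTR. Of its 15 sites, 4 were in the 5′ UTR, 6 in coding sequence and 5 in the 3′ UTR. They sat at both ends of the transcript, with 9 in exon 1 of 8 and 6 in exon 8, and none in the exons between. The 5′ UTR sites scored from 0.549 to 0.728 and the 3′ UTR sites from 0.626 to 0.97, so the lowest and highest scores came from opposite ends. The highest was GGACA at 47 nt after the stop codon, in the window shown above. All 15 sites were at DRACH, and 15 of the 44 DRACH motifs of the transcript were listed (34.1%), against 20 of 72 (27.8%) in the whole transcript of SLC7A5.

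SLC1A4 (ASCT1), a paralog of SLC1A5 that carries serine and alanine, had 6 sites on chromosome 2. There were 3 in coding sequence and 3 in the 3′ UTR, with scores from 0.738 to 0.904, all above 0.7. A site 21 nt from the end of exon 1 was the only one outside the last exon. Although both genes had sites in exon 1, SLC1A5 had 9 there and SLC1A4 had 1, at 0.738. The transcript of SLC1A4 held 89 DRACH motifs, of which 6 were listed (6.74%).

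SLC7A1 (CAT-1), the carrier of arginine and lysine, had 10 sites on chromosome 13, 2 coding and 8 in a 3′ UTR of 5066 nt. Its sites were the lowest-scoring of any gene with at least 5 sites, with a median of 0.61 and a range from 0.528 to 0.785, and only 2 of them reached 0.7. In the 3′ UTR they spread from 266 to 4059 nt after the stop codon, farther than in any other of the 15 genes. Of 133 DRACH motifs in the transcript 9 were listed (6.77%).

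In the SLC38 family of sodium-coupled neutral amino acid carriers, 2 of 11 genes had sites. SLC38A10 (ENSG00000157637.13, chromosome 17, minus strand) had 21, of which 4 lay in exon 13 and 17 in exon 16, the last exon of its canonical transcript. By that transcript 19 were coding and 2 were in the 3′ UTR, and 15 of the 17 sites in the last exon were coding. The canonical transcript did not meet the transcript support level asked of the longest one. Its longest well-supported transcript lacks that exon and placed the same 17 sites in no exon, so the region of these sites depends on the transcript taken. The median score was 0.768 (range 0.578 to 0.904), and the highest-scoring pentamer was AAACT in the 3′ UTR. By the canonical transcript 19 of 62 DRACH motifs were listed (30.6%), and by the longest well-supported one 4 of 31 (12.9%).

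SLC38A7, which exports glutamine from lysosomes, had 4 sites, all in the 3′ UTR from 117 to 362 nt after the stop codon. Scores were 0.715, 0.849, 0.831 and 0.867 going 5′ to 3′, so all of them were above 0.7. The last of these is the site printed above at GGACA.

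Among the glucose carriers, 3 genes named for the SLC2A family had a site, in addition to SLC2A4RG. SLC2A1 (GLUT1, ENSG00000117394.24, chromosome 1, minus strand), the basal glucose transporter of most cells, had 7 sites in exon 10 of 10, 1 coding and 6 in the 3′ UTR. Going 5′ to 3′ they scored 0.854, 0.546, 0.805, 0.819, 0.928, 0.919 and 0.703, so 1 site, at 48 nt after the stop codon, was low and the rest were above 0.7. The highest pair lay 417 and 424 nt after the stop codon.

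SLC2A6 and SLC2A8, which are known as intracellular members of the family, lie on chromosome 9 and had 7 and 6 sites, in both cases 1 coding and the rest in the 3′ UTR of the last exon. The SLC2A6 sites scored from 0.531 to 0.824 with a median of 0.71. The SLC2A8 sites scored from 0.507 to 0.839 with a median of 0.658, and 5 of its 29 DRACH motifs were listed (17.2%). Both genes had a lower median than SLC2A1, which had 0.819. SLC2A4RG, a transcriptional regulator and no carrier, had 2 low sites in its 3′ UTR, at 0.553 and 0.614.

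SLC16A3 (MCT4, ENSG00000141526.18, chromosome 17, plus strand), the lactate exporter of glycolytic cells, was the only one of 14 SLC16A genes with a site. It had 6, with 4 in coding sequence and 2 in the 3′ UTR. From 5′ to 3′ the coding sites scored 0.866, 0.633, 0.728 and 0.85. The 3′ UTR sites scored 0.858 at 74 nt and 0.919 at 79 nt after the stop codon. All 6 were at DRACH, which is 6 of 31 DRACH motifs of the canonical transcript (19.4%) and 6 of 71 of the longest well-supported one (8.45%). SLC16A1 (MCT1), the carrier most often paired with it, had no listed site, with 67 DRACH motifs in its canonical transcript and 78 in its longest well-supported one.

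The highest score of all 117 sites was 1, in SLC20A1 (PiT-1), a sodium-coupled phosphate carrier on chromosome 2. It belonged to GAACT at 718 nt after the stop codon in a 3′ UTR of 800 nt. The window, shown because of that score, was read on the plus strand at chr2:112663731-112663751.
SLC20A1: tggaatgtGAACTttgggcaa

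The other 2 SLC20A1 sites scored 0.882 in coding sequence and 0.629 in the 3′ UTR. The remaining sites were in the SLC6 family, where 2 of 19 genes had any. SLC6A8, the creatine carrier on the X chromosome, had 2 coding sites in exon 1 of 13, at 0.634 and 0.889, and had no 3′ UTR site by either transcript. The only other gene without one was SLC38A10, and that by its longest well-supported transcript alone. SLC6A9 (GLYT1), a glycine carrier, had 3 sites in its last exon, which scored 0.816 in coding sequence and 0.913 and 0.531 in the 3′ UTR.

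**Figure D2:**
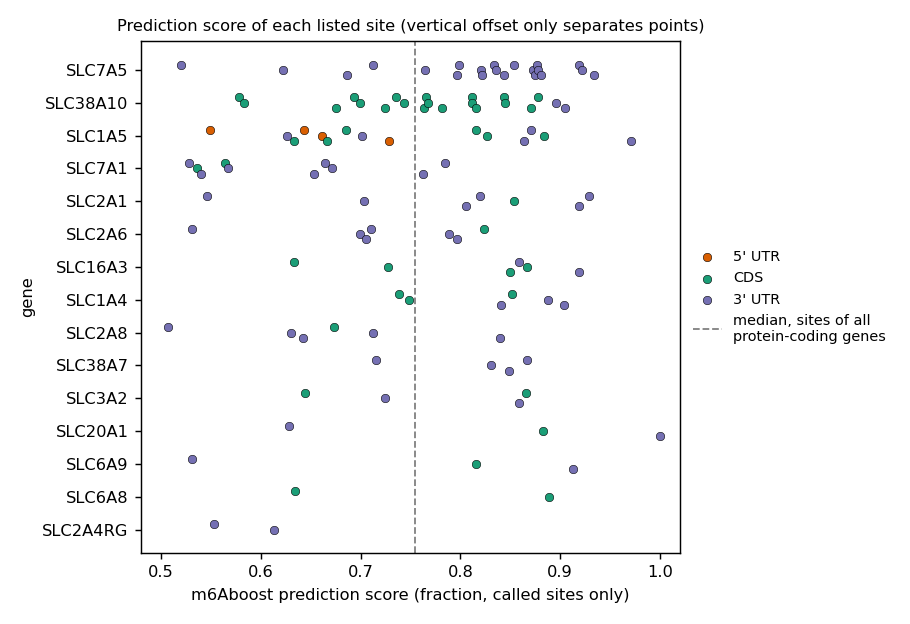
Prediction scores (x axis) of the 117 sites by gene (y axis), with 1 point for each site and colours for the region in the canonical transcript. The dashed line is the median of the sites of all protein-coding genes. SLC7A1 had the lowest median among the genes with at least 5 sites, with 2 of 10 sites at 0.7 or above, against 18 of 21 in SLC7A5.

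Set side by side, the 117 sites had a median score of 0.785 (0.728 to 0.819), and all sites in protein-coding exons had 0.755 (0.752 to 0.758). The interval of the carriers held the value of all sites, and the sites of the other SLC genes had 0.745 (0.724 to 0.769). At 0.7 or above were 80 of the 117 (68.4%), against 63.1% of all sites. By region of the canonical transcript the medians were 0.652 for the 4 sites in the 5′ UTR, 0.765 (0.725 to 0.816) for 43 coding sites and 0.802 (0.715 to 0.841) for 70 sites in the 3′ UTR. Over all protein-coding genes the same medians were 0.62, 0.707 and 0.802, in the same order. Region is an input of the classifier, so a difference in score between regions is no independent measure of methylation.

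By the longest well-supported transcript 68 of the 117 sites lay in the 3′ UTR (58.1%, 49.1 to 66.7), 28 in coding sequence (23.9%), 4 in the 5′ UTR and 17, all of SLC38A10, in the exon of another transcript. By the canonical transcript, 70 were in the 3′ UTR (59.8%, 50.8 to 68.3) and 43 were coding (36.8%). The same shares over all protein-coding genes were 53.8%, which lies inside the interval of the carriers, and 42.1%. In the other SLC genes they were 56.9% and 35.5%. The canonical transcript gave a 3′ UTR site to 14 of the 15 genes, a coding site to 12 and a 5′ UTR site to 1. These counts of genes were not set beside those of all genes with a site. SLC7A5 weighed on the total, because the share in the 3′ UTR without it was 49% (39.2 to 58.8) by the longest transcript.

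The region around the stop codon, where m6A is known to be dense, held a site in 12 of the 15 genes within 200 nt by the canonical transcript. This count was not set beside all genes with a site, whose median was 3 sites against 6 in the 15. By sites, 33 of 117 lay in that region (28.2%), against 34.5% over all protein-coding genes and 34.4% in the other SLC genes. By the longest transcript it was 31 of 100 (31%, 22.8 to 40.6) against 33.2%. The interval by the longest transcript contained the value of all genes. SLC20A1, SLC6A8 and SLC2A4RG had none there, and the second stretch of SLC7A5 and the distant sites of SLC7A1 lay far beyond it. In the last exon were 97 of 117 sites (82.9%) by the canonical transcript, against 75.3% for all genes and 84.6% for the other SLC genes. The other 20 sites were in SLC1A5, SLC38A10, SLC16A3, SLC6A8, SLC20A1, SLC1A4 and SLC7A1.

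**Figure D3:**
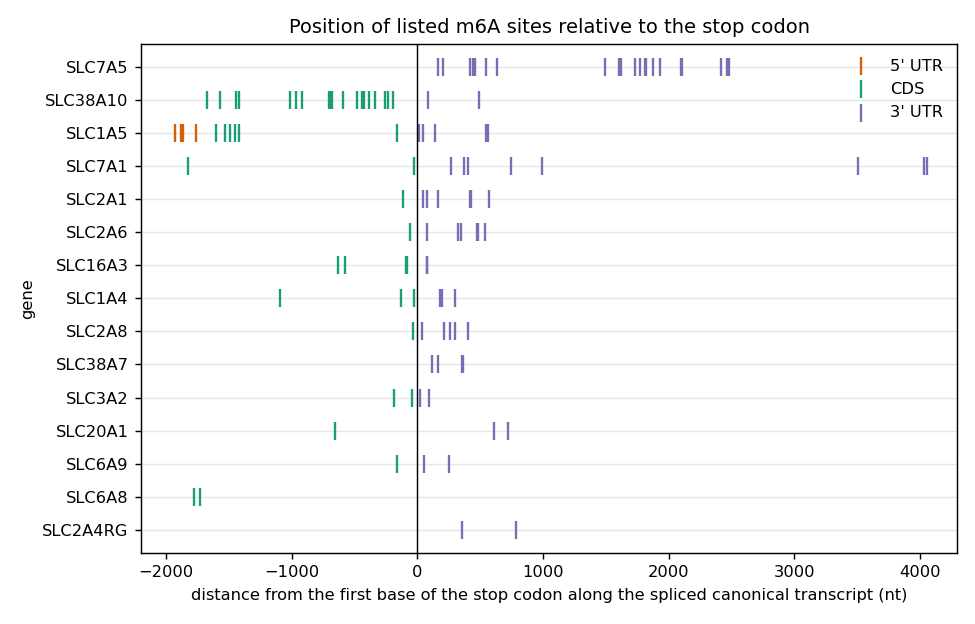
Distance of each site from the first base of the stop codon along the spliced canonical transcript (x axis, nt), by gene. Each site is 1 tick mark, and the vertical line is the stop codon. The SLC7A5 sites fall into 2 stretches, from 161 to 636 nt and from 1497 to 2485 nt. The 4 SLC3A2 sites all lie within 200 nt of the stop codon, in a gene whose 3′ UTR has 187 nt.

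At the level of the motif, 107 of the 117 sites were at DRACH (91.5%, 85 to 95.3), against 88.7% over all sites in protein-coding exons and 86.9% in the other SLC genes. The most frequent pentamer was GGACA with 22 sites (18.8%), followed by GGACC with 19 (16.2%), GGACT with 18 (15.4%) and AGACT with 13. Over all protein-coding genes GGACT came first with 21.7%, ahead of GGACA with 13.5% and GGACC with 10.2%. The order was not tested, and SLC7A5 and SLC38A10 weigh on it with 21 sites each. The 15 host transcripts held 841 DRACH motifs, of which 92 were listed (10.9%, 9 to 13.2), against 7.05% in the host transcripts of all genes and 9.47% in those of the other SLC genes. By the canonical transcript the shares were 107 of 824 (13%), 7.44% and 10.3%. Motifs of 1 transcript are not independent, and SLC7A5 and SLC1A5 gave 35 of the 92.

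Some neighbouring sites were close, at shares near those of all protein-coding genes. Of 102 pairs of neighbours in the same gene, 39 lay within 50 nt along the canonical transcript (38.2%), against 32.3% in all genes, and 7 lay within 10 nt (6.86%), against 6.91%. The closest pairs of SLC7A5, SLC16A3, SLC2A1 and SLC38A7 are shown as examples, with pentamers that overlap, touch or are parted by 2 bases, and capitals mark the pentamers of both sites.
SLC7A5 pair: gcaggtGGACTGACTgtgttg
SLC16A3 pair: ttttacAAACTGGACTggctca
SLC2A1 pair: ctaatcGAACTatGAACTacaaag
SLC38A7 pair: ggagaaTGACTatGGACAgaaggc

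They were read from GRCh38 at chr16:87831144-87831164 (minus), chr17:82239040-82239061 (plus), chr1:42926611-42926634 (minus) and chr16:58667017-58667040 (minus). The gaps between the adenosines were 4, 5, 7 and 7 nt. The scores of these pairs were 0.934 and 0.919 for SLC7A5, 0.858 and 0.919 for SLC16A3, 0.928 and 0.919 for SLC2A1, and 0.831 and 0.867 for SLC38A7. The other 3 of the 7 pairs, with gaps of 6, 9 and 10 nt, scored 0.822 and 0.821 in SLC7A5, 0.71 and 0.797 in SLC2A6, and 0.578 and 0.725 in SLC38A10. The 7 pairs thus included both high and low scores. Whether both adenosines of a pair are modified in 1 molecule cannot be told from a list of positions.

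The 10 sites outside DRACH lay in 8 genes and scored from 0.507 to 0.87 with a median of 0.603, against 0.788 for the 107 at DRACH. Over all protein-coding genes the medians were 0.622 and 0.769. GGACG had 4 of the 10 and GCACT had 3. The GCACT sites of SLC2A4RG and SLC6A9 are shown because they had the same 8 bases from the pentamer on, GCACTTTG, although they lie in different genes.
SLC2A4RG: gtcccgatGCACTttgagggg
SLC6A9: ggtccaaaGCACTttggaggg

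These windows lie at chr20:63743333-63743353 (plus) and chr1:43997288-43997308 (minus). Their scores were 0.553 and 0.531, among the lowest of the 117. Of the 87 sites at GCACT in the whole list 46 had the same 8 bases (52.9%). The 21-base window had 1 exact match in the genome for 114 of the 117 sites. The exceptions were both windows of SLC6A8, with 3 matches each, and that of the GCACT site of SLC2A6, with 323570. The 31 bases after the site had 1 exact match for all 117.

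The remaining 76 genes had no listed site. All 4 SLC36A genes (SLC36A1 to SLC36A4) and all 3 SLC43A genes (SLC43A1 to SLC43A3) were among them, as were SLC3A1 and SLC20A2. The SLC1A genes without a site were SLC1A1, SLC1A2, SLC1A3, SLC1A6 and SLC1A7. In SLC2A they were SLC2A2, SLC2A3, SLC2A4, SLC2A5, SLC2A7, SLC2A9, SLC2A10, SLC2A11, SLC2A12, SLC2A13 and SLC2A14. In SLC6A they included SLC6A2 to SLC6A7 and SLC6A11 to SLC6A20. In SLC7A they were SLC7A2, SLC7A3, SLC7A4, SLC7A6, SLC7A6OS, SLC7A7, SLC7A8, SLC7A9, SLC7A10, SLC7A11, SLC7A13 and SLC7A14. In SLC16A every gene but SLC16A3 had none, and in SLC38A all but SLC38A7 and SLC38A10. SLC2A3 (GLUT3), SLC7A11 (xCT, the cystine carrier) and SLC38A2 (SNAT2) are thus in the list of genes without a site.

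The median host transcript of the 15 genes held 44 DRACH motifs, and 55 of the 76 genes without a site had at least as many. The median of those 76 was 63.5. Over all protein-coding genes the medians were 48 with a site and 57 without, and in the other SLC genes 50 and 56.5. More motifs in genes without a site is thus no trait of the carriers. SLC16A7 (MCT2) had 230 motifs and SLC1A2 had 226, with none listed. The transcripts of the 15 genes had a median GC content of 61.2%, from 46.2 (SLC20A1) to 64.8 (SLC2A4RG), and those of the other 76 had 50%, from 33.8 (SLC16A7) to 68.4 (SLC16A11). At or above 57.1%, the median of all host genes, 11 of 26 carrier genes had a site (42.3%, 25.5 to 61), and below it 4 of 65 (6.15%, 2.42 to 14.8). Over all protein-coding genes the same shares were 39.5% and 13.1%. The part of GC content in which genes are listed was not tested, and expression was not analysed here.

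**Figure D4:**
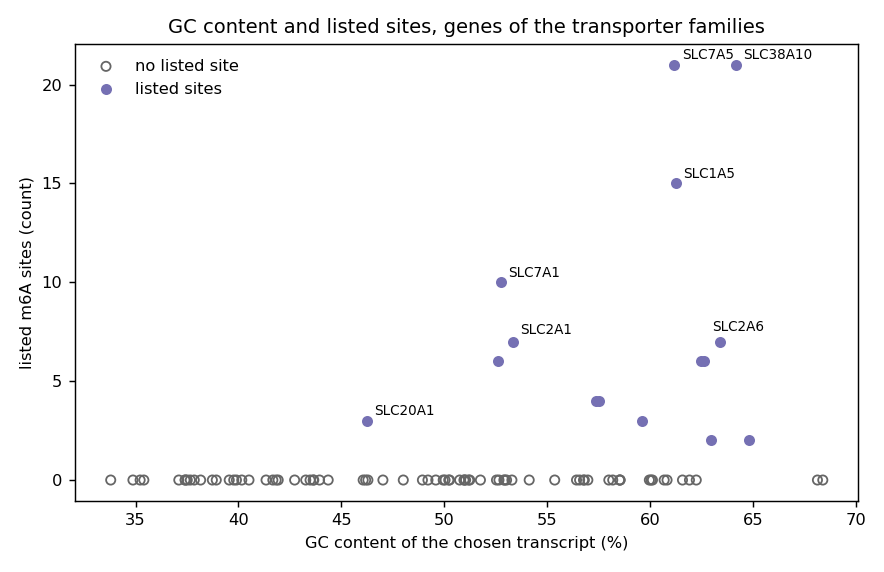
GC content of the chosen transcript (x axis, percent) against the number of listed sites (y axis, count) for the 91 genes, with 1 point for each gene. Of the genes at or above 57.1% GC, 11 of 26 had a site, and of those below it 4 of 65.

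Reads were kept only where they mapped uniquely, so near-identical copies can hide sites. The 31 bases after the central A of a DRACH motif occurred exactly elsewhere in the genome for 232 of the 6442 motifs of the 91 genes (3.6%), and for none of the 92 listed motifs. The share was 42.2% in SLC2A3 and 43.1% in SLC2A14, which are near-identical paralogs, 33.7% in SLC16A6 and 33.3% in SLC6A8. The count of 0 sites in SLC2A3, SLC2A14 and SLC16A6 is therefore uncertain for those motifs, and the 2 sites of SLC6A8 are a count over the rest.

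Genes that act with the carriers were taken from a list of 34: escorts, glycolytic and amino acid enzymes, and nutrient sensors. A site was listed in 13 of them (38.2%, 23.9 to 55), against 19.6% of all protein-coding genes. The list was put together with earlier results of these data known and the expression of its genes was not analysed here, so the share is a description. These genes held 68 sites, 47 in the 3′ UTR and 21 in coding sequence.

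BSG (basigin), the escort that SLC16A3 needs to reach the membrane, had 6 sites with scores from 0.509 to 0.875, 3 coding and 3 in the 3′ UTR. Of the glycolytic enzymes, PKM and PFKFB3 had 7 each, and HK1, PFKP and LDHA had 4 each. The PFKFB3 sites were all in the 3′ UTR and reached 0.958. The nutrient sensors with sites were MLXIP, the glucose-responsive factor, with 13 sites, its partner MLX with 3, the leucine sensor SESN2 with 9, LAMTOR1 of the Ragulator complex with 5 and the Rag GTPase RRAGA with 2. The 13 MLXIP and 3 MLX sites were all in the 3′ UTR, and the MLX sites scored from 0.852 to 0.895. Of amino acid synthesis, PHGDH had 3 coding sites and GLUL, glutamine synthetase, had 1 coding site at 0.945. Genes with none included EMB, XPR1, TXNIP, ARRDC4, HK2, PFKFB2, LDHB, ASNS, PSAT1, SESN1, SESN3, CASTOR1, CASTOR2, RRAGB, RRAGC, RRAGD, MLXIPL, HIF1A, ARNT and NEDD4L.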

How the data were processed

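miCLIP2 was done on poly(A) RNA of untreated C643 cells. The labels' processing notes name STAR 2.7.3a, SAMtools 1.9, UMI-tools 1.0.0 and bedtools 2.27.1. The authors kept uniquely mapping reads, collapsed duplicates by molecular identifiers, called peaks with PureCLIP in each replicate, kept those found in more than 1, and ran m6Aboost, which reads the sequence, transcript region, C-to-T transitions and relative signal. The deposited list gives each accepted position of GRCh38 with the prediction score, a fraction between 0 and 1. Alignability, expression, antibody and classifier all bear on which sites are listed.

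Sites were given 1-based and were assigned to the exons of any transcript of a gene on the same strand in GENCODE 44, a later release than the authors used on the same assembly. Regions came from the longest spliced transcript of support level 2 or better whose transcript support level was 3 or better, or not given, and from the Ensembl canonical transcript. Distances run along the spliced transcript. Except where stated, values of the carriers were set beside those of all protein-coding genes, with no test between them. For gene shares, sites per gene, regions, scores, motif counts and DRACH shares they were also set beside other SLC genes, again with no test. The genes, lists and rules were chosen with earlier results of these data known. All genes with a site were named, genes with at least 5 sites or 1 of the 5 highest scores were described, and windows were printed for the 10 genes with the most sites; the windows of SLC20A1, of the close pairs and of the GCACT sites, and the genes with fewer sites, were added after their values were seen. A few genes and sequences are not reported here. Placement was tested on simulated data, with 1000 of 1000 sites recovered. Alternatives changed the score threshold, the transcript, the exons, the genes, the motif and the stop codon window. Python 3.11.15, numpy 2.4.6, scipy 1.17.1, pysam 0.24.0 and matplotlib 3.10.9 were used.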

Additional observations from a re-analysis of the deposited data

Results flagged for a closer look

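One site lay within SLC16A3 on its strand but outside every annotated exon, so it entered no count. It was at position 82238000 of chromosome 17, at GGACT, with a score of 0.628. It drew attention because it is a signal in data that the exonic comparisons do not use. There was no control sample, and which transcript it belongs to was not tested.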

How the results depend on the processing

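The 9 main values were computed under 43 alternatives, of which 37 stayed within the interval of the main value, or within 1.5 times it for the number of sites. The other 6 did not. The share of sites in the 3′ UTR, 58.1%, became 68% with only the exons of the chosen transcript, 49% without SLC7A5 and 70.8% without SLC38A10, a setting chosen after seeing the data. With sites at 0.7 or above, the median score became 0.838 and the share of DRACH motifs listed 7.92%. The share near the stop codon became 43% within 400 nt, by construction a wider window. The share of genes with a site stayed between 15.4% and 16.5%. No replicate could be left out, because the list pools them. No paired analysis was possible because the samples form 1 group. Depth is unknown, so a motif without a listed site cannot be told apart from one with too few reads, and scores of rejected peaks were not analysed here.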
